A study of Homo sapiens with 12 samples.

Results

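The genes described here encode the HLA class I antigen presentation machinery: the heavy chains HLA-B, HLA-C, HLA-E, HLA-F and HLA-G, the shared light chain B2M, and the peptide loading proteins TAP1, TAP2 and TAPBP. All array probes annotated to these 9 genes were taken, which gave 15 probes of 47323 for 9 of the 20046 genes the array annotation names. The genes were proposed with their behaviour over untreated, 1 µM and 4 µM tamoxifen already known, so their values are given as a description and without p-values. RNA was hybridized to Illumina bead arrays. The cells were PANC-1, a line from a human pancreatic ductal adenocarcinoma, which here stably expresses a tamoxifen-inducible form of E47, a basic helix-loop-helix transcription factor encoded by TCF3. The 12 arrays form 3 groups of 4: untreated cells, cells given 1 µM tamoxifen for 48 h and cells given 4 µM tamoxifen for 48 h. All 3 groups carry the inducible E47, and there is no group without it that received tamoxifen, so effects of the drug and of E47 cannot be told apart. The treatment notes print the lower dose with a unit of volume, and the titles give it as 1 µM. The labels name no vehicle and no time for untreated cells, and do not say whether the line is a clone or whether replicates are separate cultures, so the errors measure only the spread between these samples.

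HLA class I molecules display peptides from inside the cell on its surface. Proteasomes cut proteins into peptides, the TAP1 and TAP2 transporter carries them into the endoplasmic reticulum, tapasin (TAPBP) holds the transporter and an empty class I molecule together, and a heavy chain with B2M leaves for the surface once it has bound a peptide. HLA-B and HLA-C are classical molecules that present to CD8+ T cells, while HLA-E, HLA-F and HLA-G are non-classical ones that also engage receptors of natural killer cells. Loss of class I display is a known route by which tumours, pancreatic carcinoma among them, escape T cells. HLA-B, HLA-C and B2M are classically switched on through interferon regulatory factor (IRF) sites, kappaB sites and the X and Y boxes read by RFX, CREB and NF-Y proteins with NLRC5.

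The promoters are shown first, because the letters show which of the known class I control elements each gene's window holds. The heavy chain genes do not all hold the same ones. The 250 bases before the RefSeq start site (GRCh38.p14) are printed 5′ to 3′ on the gene's strand for 5 genes. They are the reference sequence and not the alleles of PANC-1. Capitals mark matches on either strand to the E-box CANNTG, the IRF element (GAAA, any 2 bases, GAAA), a short IRF repeat GAANNGAAA, the X2-type motif TGACGC, the Y-box CCAAT and a kappaB-type motif (GGG, any 2 bases, TT, any base, CC). Matches that overlap run together in capitals.
HLA-B, chr6:31357180-31357429, minus strand: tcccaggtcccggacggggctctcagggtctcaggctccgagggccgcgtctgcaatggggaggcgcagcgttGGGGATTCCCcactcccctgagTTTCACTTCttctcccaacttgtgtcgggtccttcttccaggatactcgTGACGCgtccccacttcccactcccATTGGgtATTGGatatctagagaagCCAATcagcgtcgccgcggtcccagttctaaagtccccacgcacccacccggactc
HLA-C, chr6:31272093-31272342, minus strand: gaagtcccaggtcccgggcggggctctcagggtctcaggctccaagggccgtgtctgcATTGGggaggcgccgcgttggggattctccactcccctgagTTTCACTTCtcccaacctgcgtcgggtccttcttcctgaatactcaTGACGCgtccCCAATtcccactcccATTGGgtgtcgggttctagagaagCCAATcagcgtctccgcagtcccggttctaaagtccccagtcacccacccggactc
HLA-F, chr6:29723184-29723433, plus strand: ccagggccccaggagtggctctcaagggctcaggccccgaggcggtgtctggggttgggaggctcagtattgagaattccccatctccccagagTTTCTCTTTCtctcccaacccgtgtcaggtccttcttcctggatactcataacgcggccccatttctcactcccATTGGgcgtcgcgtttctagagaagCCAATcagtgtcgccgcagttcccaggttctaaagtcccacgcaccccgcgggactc
B2M, chr15:44711267-44711516, plus strand: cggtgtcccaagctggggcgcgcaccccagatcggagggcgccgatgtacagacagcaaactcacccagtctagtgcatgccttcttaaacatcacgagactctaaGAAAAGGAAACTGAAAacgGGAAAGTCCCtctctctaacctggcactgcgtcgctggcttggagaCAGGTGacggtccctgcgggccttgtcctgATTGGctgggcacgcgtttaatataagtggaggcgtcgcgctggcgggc
TAP2, chr6:32838740-32838989, minus strand: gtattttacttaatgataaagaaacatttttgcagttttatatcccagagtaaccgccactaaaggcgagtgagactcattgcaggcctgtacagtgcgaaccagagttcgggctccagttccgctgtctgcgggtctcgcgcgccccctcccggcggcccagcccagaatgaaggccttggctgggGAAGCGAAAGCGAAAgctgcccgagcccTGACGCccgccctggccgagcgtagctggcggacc

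HLA-B and HLA-C held the same TTTCACTTC repeat, 155 to 147 bases before the start in HLA-B and 151 to 143 bases before it in HLA-C, and the same TGACGC, from 106 and 105 bases before it. HLA-F carried the full IRF element TTTCTCTTTC from 156 bases before its start, but no X2-type or kappaB-type match, and HLA-C held no kappaB-type match. B2M held overlapping IRF elements, a kappaB-type match and the E-box CAGGTG from 79 bases before its start. RefSeq windows were found for 8 of the 9 genes, 11 windows in all because HLA-G has 3 start sites and TAP1 has 2. HLA-E had no window. The HLA-G windows, not printed here, held no IRF element, short IRF repeat, X2-type or kappaB-type match, and 1 Y-box, before start site 3. An IRF element lay in 5 of the 11 windows, 1 each of 5 genes (HLA-F, B2M, TAP1, TAP2 and TAPBP), and in 3.02% of all 35116 promoter windows of this length. The short IRF repeat lay in 3 of the 11 windows against 6.56% of all windows, the X2-type motif in 3 against 7.67%, the kappaB-type motif in 4 against 5.07% and the Y-box in 6 against 32%. An E-box, the kind of site that E47 binds, lay in 3 of the 11 windows, while 61.8% of all windows held one. These were the B2M window and those of HLA-G start sites 1 and 2, not that of start site 3. The CAGNTG form of the E-box, which E47 favours, lay in 2 of the 11 windows (B2M and HLA-G start site 2) and in 42.5% of all windows. A match describes letters and does not show that a factor binds there.

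**Figure D1:**
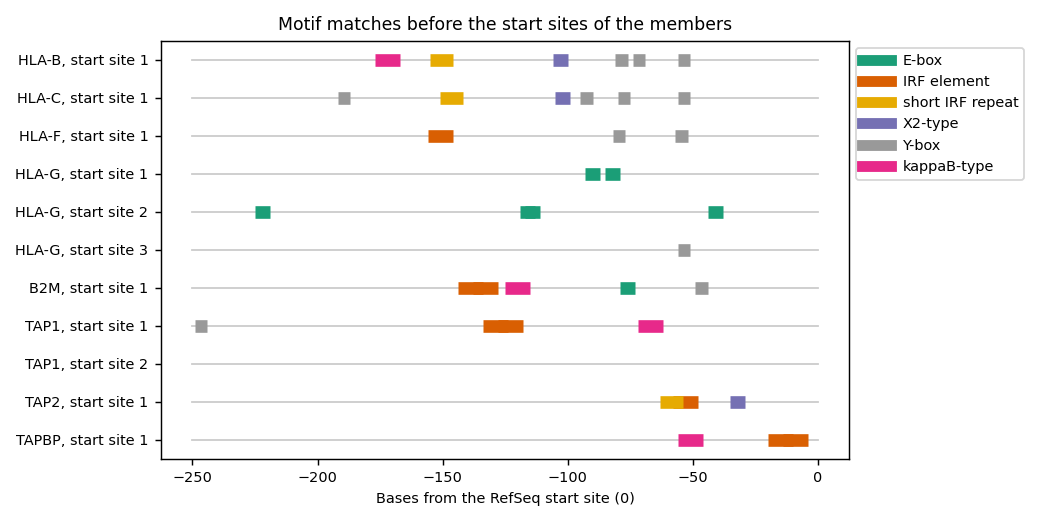
Motif matches in the 11 RefSeq promoter windows of 8 member genes; the horizontal axis is the distance in bases from the start site at 0, each row is a window and each coloured block a match. HLA-B and HLA-C carry the short IRF repeat and the X2-type motif at nearly the same distances, and E-boxes appear in the B2M window and in the windows of the first and the second HLA-G start site.

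The heavy chain genes were higher in cells given tamoxifen at both doses, B2M and TAP1 differed from untreated cells by -0.15 to 0.32 on the log2 scale, and TAP2 and TAPBP had larger values at 1 µM than at 4 µM. On the log2 scale the 6 tested heavy chain probes had a median difference of 0.99 at 1 µM and 0.59 at 4 µM, the 2 B2M probes 0.13 and 0.28, and the 6 peptide loading probes 0.31 and -0.04. A probe was tested when its intensity exceeded a background threshold of 123.6 on at least 4 arrays, which 14 of the 15 probes did. A probe is called here when its limma p-value, adjusted over all 24329 tested probes by the Benjamini-Hochberg method, lay below 0.05. At 1 µM, 9 of the 14 were called higher, where 18.1% of all tested probes were, and 0 were called lower, where 19.8% were; at an unadjusted p below 0.05 the count lower was also 0. At 4 µM, 7 were called higher against 19.8% of all probes, and 1 lower against 20.3%. Arrays of treated and untreated cells did not overlap for 9 probes that were higher at 1 µM (16% of all tested probes) and for 0 that were lower (17.2%). At 4 µM this held for 5 higher probes (18.6%) and 1 lower probe (18.8%). The choice of the genes fixed these counts in part, and nothing is read from them. Fold changes are on log2 intensities after background correction with an offset of 50, ± the standard error, with n = 4 arrays per group. The 12 arrays share 1 distribution of values, so each change is relative to the rest of the array. Both doses are compared with the same untreated arrays.

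**Figure D2:**
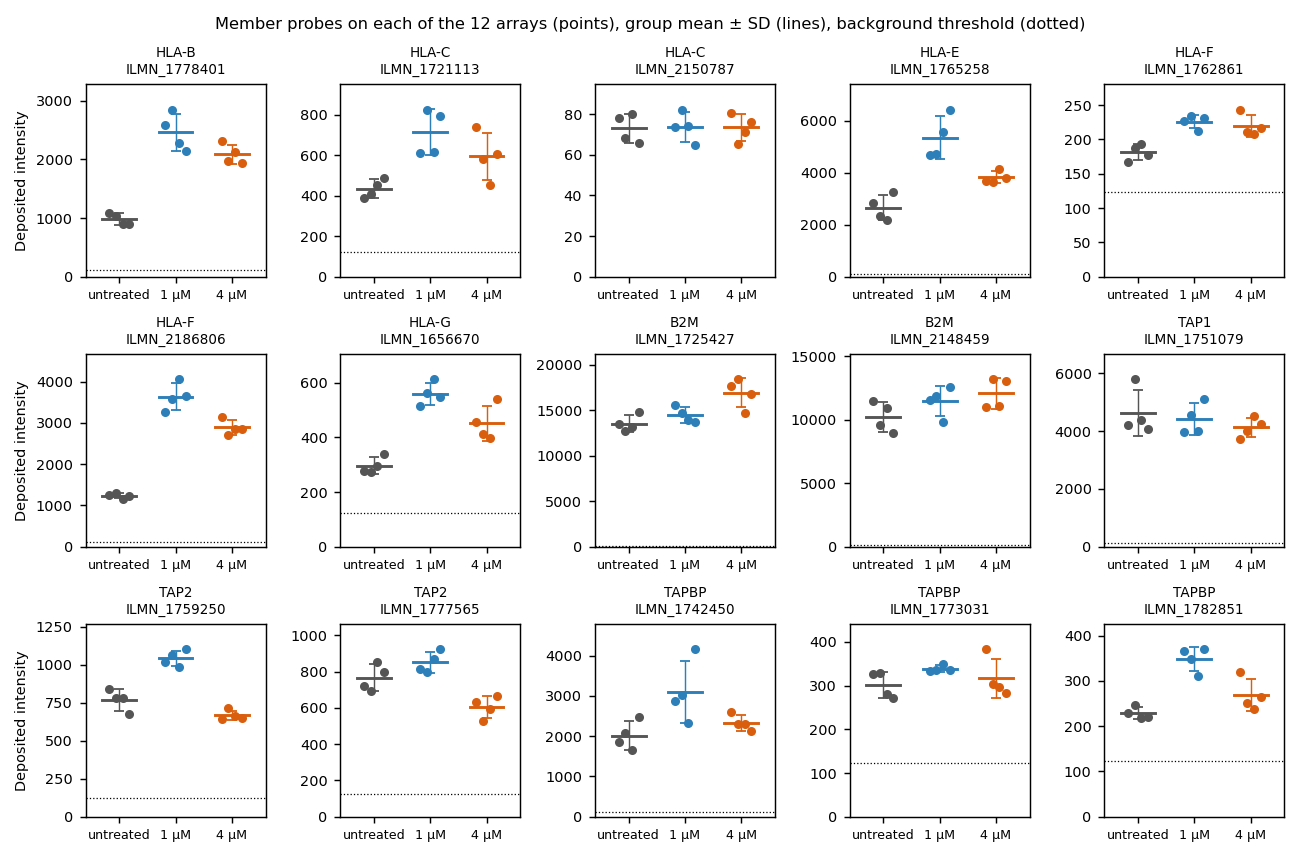
Deposited intensity (linear scale, arbitrary units) of the 15 member probes on each array; points are the 4 arrays of untreated, 1 µM and 4 µM cells, horizontal lines the group means, bars ± SD, and the dotted line the background threshold of 123.6. HLA-B, HLA-E, HLA-G and both HLA-F probes have all treated arrays above all untreated arrays, whereas the groups overlap for B2M and TAP1.

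HLA-B, a classical heavy chain, read 1094, 1042, 897 and 894 on the untreated arrays, 2581, 2851, 2283 and 2141 at 1 µM, and 2308, 1974, 2127 and 1946 at 4 µM. Every treated array lay above every untreated one, and the treated groups overlapped each other. Its log2 fold change was 1.34 ± 0.11 at 1 µM (2.52-fold) and 1.10 ± 0.11 at 4 µM (2.15-fold). HLA-C, the other classical heavy chain among the members and a main ligand of killer-cell immunoglobulin-like receptors, was measured by 2 probes that behaved differently. One read 387, 410, 453 and 489 in untreated cells, 611, 825, 617 and 795 at 1 µM, and 736, 582, 451 and 604 at 4 µM. The 1 µM arrays lay apart from the untreated ones, while 4 µM array 3 fell among the untreated values. Its log2 fold change was 0.72 ± 0.13 at 1 µM and 0.44 ± 0.13 at 4 µM, and the 4 µM call was lost without 4 µM array 1 (0.33). The other HLA-C probe read between 65 and 82 on all 12 arrays, under the background threshold, and has no fold change.

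HLA-E, which displays leader peptides of other class I chains to the CD94/NKG2 receptors of natural killer cells, read 2835, 2357, 2173 and 3243 in untreated cells. It read 4674, 4722, 5555 and 6434 at 1 µM and 3677, 3651, 4152 and 3807 at 4 µM. The 3 groups did not overlap, with 1 µM the highest and untreated the lowest. The log2 fold change was 1.02 ± 0.12 at 1 µM and 0.55 ± 0.12 at 4 µM.

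HLA-F, which can reach the surface without peptide, had 2 probes assigned to different transcripts, and their sizes differed. The brighter read 1252, 1301, 1157 and 1239 in untreated cells, 3260, 3569, 4050 and 3655 at 1 µM, and 3149, 2701, 2845 and 2857 at 4 µM. Its log2 fold changes, 1.56 ± 0.11 at 1 µM (2.95-fold) and 1.23 ± 0.11 at 4 µM (2.35-fold), were the largest of the 14 tested probes at each dose. The dimmer read 167 to 194 in untreated cells, 213 to 234 at 1 µM and 208 to 243 at 4 µM. Its treated and untreated arrays did not overlap either, but its log2 fold changes were only 0.34 ± 0.11 and 0.30 ± 0.11. Leaving out untreated array 1 (0.25) or the first 4 µM array (0.24) ended its 4 µM call. HLA-G, best known from the fetal trophoblast, where it restrains maternal immune cells, read 275, 274, 295 and 341 in untreated cells, 514, 563, 611 and 548 at 1 µM, and 455, 414, 396 and 541 at 4 µM. All treated arrays exceeded all untreated ones, and 4 µM array 4 reached the 1 µM values. The log2 fold change was 0.95 ± 0.12 at 1 µM and 0.63 ± 0.12 at 4 µM.

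The class I heavy chain messages share long stretches of sequence and differ between people. The probe sequences were not used here, so how far each probe reads one gene or several, and which alleles of PANC-1 it matches, was not tested. The heavy chain probes are therefore not separate observations. HLA-H, a class I pseudogene outside the member set, behaved alike on both its probes. The brighter read 2749, 2307, 2722 and 2962 in untreated cells, 6580, 9193, 7087 and 8682 at 1 µM, and 7302, 6292, 6620 and 6418 at 4 µM. By limma it rose by a log2 fold change of 1.55 ± 0.12 at 1 µM (adjusted p = 6.6e-13) and 1.32 ± 0.12 at 4 µM (adjusted p = 2.33e-11).

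B2M, the light chain without which most class I molecules do not reach the surface, was measured by 2 probes of the same transcript. The first read 13455, 12682, 13154 and 14848 in untreated cells, 15547, 14706, 13919 and 13666 at 1 µM, and 17693, 18387, 14727 and 16836 at 4 µM. The second read 11483, 9608, 10967 and 8926 in untreated cells, 11603, 11864, 9795 and 12584 at 1 µM, and 10986, 13182, 11118 and 13092 at 4 µM. Groups overlapped on both probes at each dose. The first had a log2 difference of 0.10 ± 0.11 at 1 µM, with a 95% interval of -0.12 to 0.31, and 0.32 ± 0.11 at 4 µM, which was called but not without untreated array 2 (0.29) or 4 µM array 2 (0.28). The second stood at 0.16 ± 0.12 and 0.24 ± 0.12 and was not called at either dose. The upper 95% bound of the 4 B2M differences was 0.54, on the first probe at 4 µM.

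The peptide loading genes did not move as a block. TAP1, a subunit of the peptide transporter, read 4205, 5789, 4402 and 4088 in untreated cells, 3965, 4576, 4010 and 5120 at 1 µM, and 3744, 4011, 4529 and 4249 at 4 µM. The groups overlapped throughout, and the differences were -0.06 ± 0.12 at 1 µM (95% interval -0.30 to 0.19) and -0.15 ± 0.12 at 4 µM (-0.39 to 0.09). TAP2, the partner of TAP1, had 2 probes for different transcripts, both with 1 µM above 4 µM. The first read 844, 781, 780 and 674 in untreated cells, 1018, 1067, 985 and 1102 at 1 µM, and 643, 714, 661 and 653 at 4 µM. Its 1 µM arrays lay above all others, while the 4 µM and untreated arrays overlapped. The log2 difference was 0.45 ± 0.11 at 1 µM and -0.21 ± 0.11 at 4 µM, the latter not called. The second read 722, 696, 855 and 796 in untreated cells, 812, 799, 869 and 922 at 1 µM, and 631, 528, 595 and 665 at 4 µM. Its log2 difference was 0.15 ± 0.11 at 1 µM, not called, and -0.35 ± 0.11 at 4 µM, the only call of a member below untreated cells, which was lost without 4 µM array 2 (-0.29).

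TAPBP, the gene of tapasin, had 3 probes assigned to different transcripts. The brightest read 1847, 2070, 1655 and 2477 in untreated cells, 2879, 3019, 2318 and 4152 at 1 µM, and 2589, 2290, 2298 and 2133 at 4 µM. It was 0.61 ± 0.14 higher at 1 µM, where 1 µM array 3 fell among the untreated values, and 0.22 ± 0.14 at 4 µM, which was not called. A dimmer probe read 230, 246, 218 and 221 in untreated cells, 365, 349, 310 and 370 at 1 µM, and 319, 252, 237 and 265 at 4 µM. Its 1 µM arrays all exceeded the untreated ones, at 0.63 ± 0.11, and at 4 µM it stood at 0.23 ± 0.11 with overlap, not called. The last TAPBP probe read 272 to 329 in untreated cells, 332 to 350 at 1 µM and 283 to 383 at 4 µM, with differences of 0.18 ± 0.11 and 0.07 ± 0.11 and no call.

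**Figure D3:**
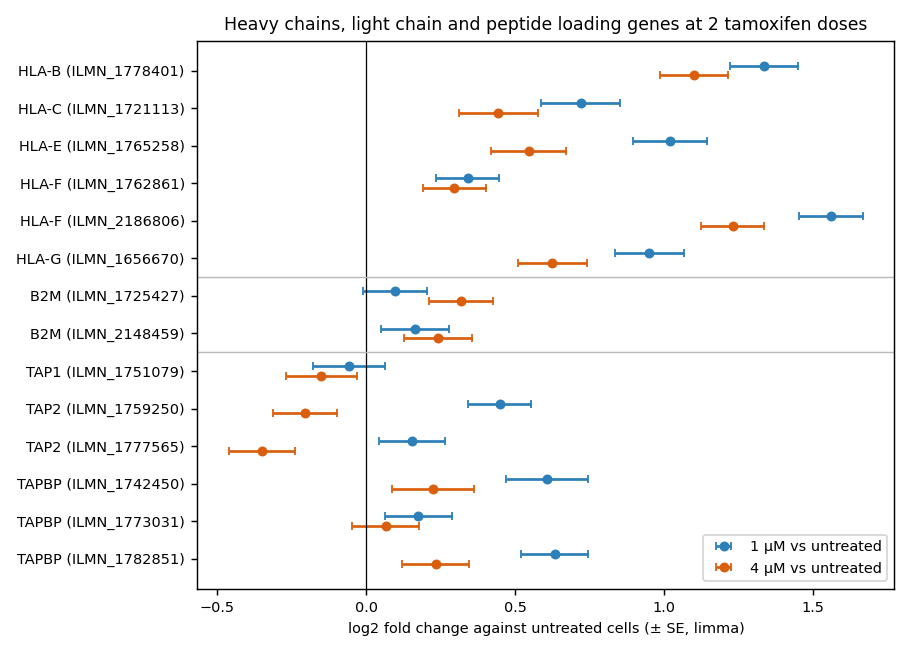
Log2 fold change against untreated cells (horizontal axis) of the 14 tested member probes, grouped from top to bottom into heavy chains, B2M and peptide loading genes; points are limma estimates and bars ± SE, 4 arrays per group, and both doses share the untreated arrays. Heavy chain points lie between 0.30 and 1.56, B2M between 0.10 and 0.32, and the peptide loading genes between -0.35 and 0.63.

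Set directly against each other, the 4 µM arrays were below the 1 µM arrays for most members. The median log2 difference of 4 µM minus 1 µM was -0.30 over the 14 probes, where the median of all tested probes was 0.00072. Of the 14, 5 were called lower, where 4.35% of all tested probes were, and 0 higher, where 4.15% were. At an unadjusted p below 0.05 limma gave 9 lower and 1 higher. The share of all probes at that looser cutoff is not given, so nothing is read from the unadjusted counts. The members called lower were both TAP2 probes (-0.65 ± 0.11 and -0.50 ± 0.11), HLA-E (-0.47 ± 0.12), the dimmer called TAPBP probe (-0.40 ± 0.11) and the brighter HLA-F probe (-0.33 ± 0.11). The TAP2 pair, HLA-E and the brighter HLA-F probe did not overlap between the doses, 4 lower probes where 6.24% of all tested probes were lower without overlap, and 0 members were higher without overlap, where 6.6% were. The HLA-F call is close to the threshold: without 1 µM array 3 its difference was -0.28 and the call was lost, as it was without 1 µM array 2 or 4, without 4 µM array 2, 3 or 4, and without untreated array 1, 2 or 3. HLA-E was no longer called without 1 µM array 4 (-0.38). The TAPBP call was lost without 1 µM array 1 or 4 or 4 µM array 2, 3 or 4 (-0.40 to -0.34). HLA-B (-0.23 ± 0.11), HLA-C (-0.28 ± 0.13), HLA-G (-0.32 ± 0.12), the brightest TAPBP probe (-0.38 ± 0.14) and TAP1 (-0.09 ± 0.12) were not called. HLA-G was called without 4 µM array 4 (-0.42) and that TAPBP probe without 1 µM array 3 (-0.51).

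Genes with the most similar profile were sought by the root mean square difference in log2 value, relative to the untreated mean, over the 12 arrays and 17552 probes of other named genes. The nearest to HLA-B was SELENON (0.13), and the nearest to HLA-F was PODXL (0.10), a sialomucin of the cell surface. HLA-E lay nearest to MOAP1 (0.14), HLA-G to TGFB1I1 (0.12) and HLA-C to SEZ6L2 (0.14). For TAPBP it was INF2 (0.09), for TAP2 RRP12 (0.11), for B2M PLBD1 (0.08) and for TAP1 MSRA (0.09). The median difference from all compared probes ran from 0.32 for TAP1 to 1.18 for HLA-F.

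In the list of proteasome and peptidase genes more fell than rose. The list also holds THOP1, which destroys class I peptides, so these counts are not a measure of peptide supply. Of 11 tested proteasome and peptidase genes, 1 rose and 3 fell at 1 µM (median log2 fold change -0.23), and 1 rose and 5 fell at 4 µM (median -0.26). Among all 12959 named genes tested, 22.9% rose and 21.8% fell at 1 µM, 24.8% rose and 22.1% fell at 4 µM, and the medians were -0.01 and 0.00. The share of the 11 that fell at 1 µM is near that of all genes. Over the 37 tested genes of the class I pathway outside the members, 0 rose and 1 fell between 1 µM and 4 µM, where 5.21% and 5.57% of named genes did. At an unadjusted p below 0.05 limma gave 2 and 7, with no share of all genes at that cutoff to set beside them. PSMB9, an interferon-inducible catalytic subunit of the immunoproteasome whose gene adjoins TAP1, read 1017, 1242, 1248 and 1086 on its brighter probe in untreated cells. It read 624, 840, 1038 and 712 at 1 µM and 663, 599, 633 and 655 at 4 µM. It fell by 0.54 ± 0.13 on the log2 scale at 1 µM (limma adjusted p = 0.000696) and by 0.86 ± 0.13 at 4 µM (adjusted p = 8.57e-07), although 1 array at 1 µM overlapped the untreated ones. The dimmer PSMB9 probe stood at -0.30 ± 0.12 at 4 µM (adjusted p = 0.0534). PSMB10, another immunoproteasome subunit, fell by 0.36 ± 0.11 at 4 µM (adjusted p = 0.00962), a call lost without untreated array 1 (adjusted p = 0.0572). PSMB8, the remaining subunit of that kind, had its brightest probe at -0.27 ± 0.11 at 4 µM (adjusted p = 0.0412). Dropping any of untreated arrays 1, 2 and 4 or of 4 µM arrays 2 and 4 ended that call, with adjusted p from 0.0626 to 0.156. Other PSMB8 probes fell by 0.37 ± 0.11 and 0.39 ± 0.11 (adjusted p = 0.00626 and 0.00351), and the last stood at -0.23 ± 0.13 (adjusted p = 0.165).

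Peptidases acting on class I ligands were split. THOP1, a cytosolic peptidase that destroys many such peptides, fell by 0.75 ± 0.14 at 4 µM (limma adjusted p = 3.15e-05), and TPP2, a large cytosolic protease, by 0.40 ± 0.12 (adjusted p = 0.00612). NPEPPS, a cytosolic aminopeptidase, rose by 0.56 ± 0.11 at 1 µM (adjusted p = 0.000133) and 0.46 ± 0.11 at 4 µM (adjusted p = 0.00113). In the endoplasmic reticulum, ERAP2, which trims peptides to fit class I molecules, rose by 0.65 ± 0.11 at 1 µM (adjusted p = 1.75e-05) and 0.53 ± 0.11 at 4 µM (adjusted p = 0.000231). TAPBPL, the tapasin-related peptide editor, rose at 1 µM (0.40 ± 0.11, adjusted p = 0.00355) and stood at 0.26 ± 0.11 at 4 µM (adjusted p = 0.0652). These were the 2 of 6 tested assembly partners called higher at 1 µM, where 22.9% of all named genes tested were. ERAP2 alone of the 6 was called at 4 µM, where 24.8% of named genes were called higher. The chaperones CALR (-0.17 ± 0.11, adjusted p = 0.222) and CANX (0.10 ± 0.11, adjusted p = 0.522) and the trimming enzyme ERAP1 (0.10 ± 0.11, adjusted p = 0.505) were not called at 4 µM.

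Among regulators of class I genes, 4 of 15 tested rose and 2 fell at 1 µM, and 5 rose and 2 fell at 4 µM (medians 0.04 and 0.02). Over all named genes tested, 22.9% rose and 21.8% fell at 1 µM and 24.8% and 22.1% at 4 µM, so the share of regulators that rose at 1 µM is near that of all genes. IRF1, an activator of class I promoters, read 1555, 1474, 1727 and 1194 in untreated cells, 2953, 2900, 2423 and 2350 at 1 µM, and 1894, 2235, 2143 and 2025 at 4 µM. The 3 groups did not overlap. It rose by 0.85 ± 0.12 at 1 µM (limma adjusted p = 4.49e-07) and 0.49 ± 0.12 at 4 µM (adjusted p = 0.000966), and its 4 µM minus 1 µM difference was -0.35 ± 0.12 (adjusted p = 0.0578). Some alternative settings called that difference. IRF9, the DNA-binding part of the interferon-activated factor ISGF3, rose by 0.98 ± 0.12 and 1.01 ± 0.12 (adjusted p = 1.6e-08 and 6.07e-09). RFXANK, a subunit of the RFX complex, rose at 4 µM by 0.67 ± 0.13 (adjusted p = 0.000103), whereas RFX5, another subunit, fell by 0.44 ± 0.11 (adjusted p = 0.00132). USF2, an E-box-binding factor, rose by 0.43 ± 0.14 at 4 µM (adjusted p = 0.0127), a call that ended without untreated array 3 or 4 µM array 1 or 3 (adjusted p 0.0533 to 0.0747). RFXAP, the remaining RFX subunit, and NFYB, an NF-Y subunit, fell at 1 µM by 0.34 ± 0.12 and 0.30 ± 0.12 (adjusted p = 0.0277 and 0.0406), and leaving out untreated array 4 for RFXAP (adjusted p = 0.0703) or untreated array 3 for NFYB (adjusted p = 0.177) was among the changes that ended these calls. EZH2, a Polycomb methyltransferase known to repress class I genes in some tumours, fell by 0.40 ± 0.11 at 4 µM (adjusted p = 0.00472). RELA, an NF-kB subunit, rose at 1 µM (0.48 ± 0.13, adjusted p = 0.00379) and not at 4 µM (-0.14 ± 0.13, adjusted p = 0.444), and the doses differed by -0.62 ± 0.13 (adjusted p = 0.00222). NLRC5, the class I transactivator, stayed at or below 114 on all 12 arrays, under the background threshold.

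Genes of class I turnover and of the supply of HLA-E ligands included some of the larger changes. SUSD6, a membrane adaptor that directs class I molecules to degradation together with TMEM127 and WWP2, had mean intensities of 194 (untreated), 493 (1 µM) and 491 (4 µM). It rose by a log2 fold change of 1.42 ± 0.12 and 1.40 ± 0.12 (limma adjusted p = 7.45e-12 and 6.99e-12). Its partners TMEM127 (0.07 ± 0.11, adjusted p = 0.686) and WWP2 (0.05 ± 0.12, adjusted p = 0.775) were not called at 4 µM. MARCHF4, a ubiquitin ligase able to remove class I molecules from the surface, had mean intensities of 517 (untreated), 208 (1 µM) and 174 (4 µM). It was 2.59-fold lower at 1 µM and 3.11-fold lower at 4 µM (adjusted p = 8.88e-12 and 7.07e-14). HM13, the signal peptide peptidase that helps to release the leader peptides shown by HLA-E, rose by 0.86 ± 0.11 and 0.91 ± 0.11 (adjusted p = 1.5e-07 and 3.8e-08). Of 5 tested genes of this kind, 2 rose and 1 fell at each dose, where 22.9% and 21.8% of named genes did so at 1 µM and 24.8% and 22.1% at 4 µM.

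Of 7 tested class I-like genes and pseudogenes, 4 rose and 1 fell at each dose (medians 0.48 and 0.57), beside shares over all named genes of 22.9% and 21.8% at 1 µM and 24.8% and 22.1% at 4 µM. MR1, which presents microbial vitamin metabolites, rose by 0.85 ± 0.12 at 1 µM and 1.49 ± 0.12 at 4 µM (limma adjusted p = 5.05e-07 and 2.04e-12), and it was higher at 4 µM than at 1 µM, by 0.64 ± 0.12 (adjusted p = 0.000582). FCGRT, the neonatal Fc receptor that also pairs with B2M, rose by 0.78 ± 0.11 and 1.07 ± 0.11 (adjusted p = 3.98e-07 and 5.52e-10). HCP5, a noncoding gene of the class I region, was below background on all untreated arrays, and was at least 1.24-fold higher at 1 µM and at least 1.33-fold higher at 4 µM, a bound computed against the background threshold. MICB, a stress ligand of the NKG2D receptor, fell by 0.42 ± 0.12 and 0.68 ± 0.12 (adjusted p = 0.0043 and 1.4e-05), while MICA was not called at 4 µM (0.04 ± 0.10, adjusted p = 0.828).

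Interferon-stimulated genes included some that rose and some that fell. Of 34 tested, 9 rose and 13 fell at 1 µM (median log2 fold change -0.11), and 11 rose and 14 fell at 4 µM (median -0.15). The shares over all named genes were 22.9% higher and 21.8% lower at 1 µM and 24.8% higher and 22.1% lower at 4 µM, and the share of this list that rose at 1 µM is near the first of these. IFIT1, an antiviral RNA-binding protein, fell by 1.79 at 1 µM and 2.00 at 4 µM (limma adjusted p = 2.57e-13 and 8.81e-15). IFIT2 fell by 1.22 and 1.34, IFITM1, a membrane restriction factor, by 1.22 and 1.03, and OAS3, a sensor of double-stranded RNA, by 0.40 and 1.07. OAS3 was not called at 1 µM once untreated array 4 or the first 1 µM array was dropped (adjusted p = 0.0571 and 0.067). Higher at 4 µM were HERC5 (1.09), a ligase of the ubiquitin-like ISG15, the antiviral GTPase MX1 (1.08), the exonuclease ISG20 (1.06) and the guanylate-binding protein GBP1 (1.04). IRF1 and IRF9 belong to this list as well as to the regulators.

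**Figure D4:**
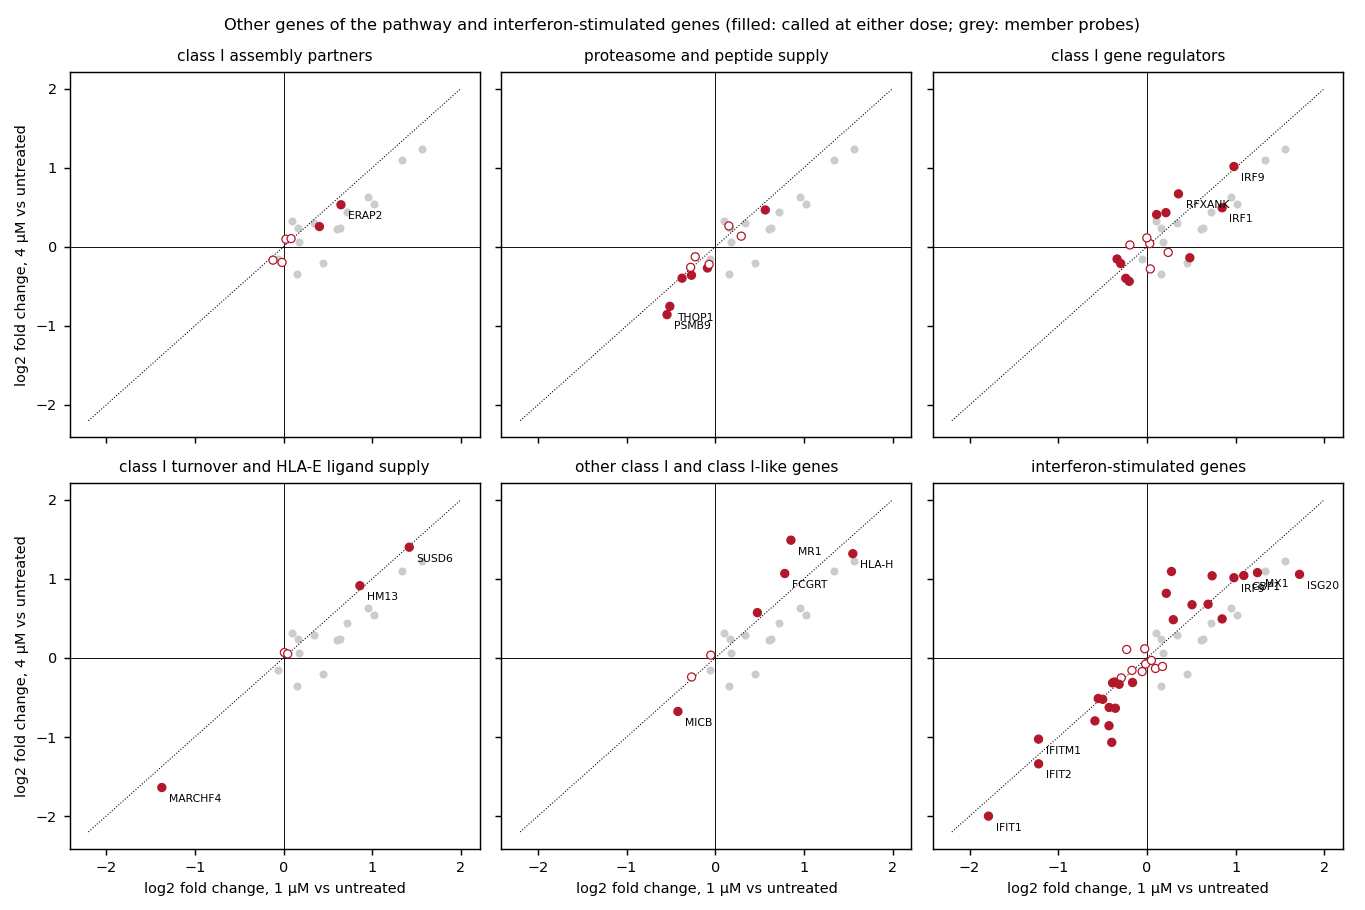
Log2 fold change at 1 µM (horizontal axis) and at 4 µM (vertical axis), both against the same untreated arrays, for the tested genes of 6 lists; filled points were called at either dose, open points at neither, grey points are the member probes and the dotted line marks equal values. SUSD6 and HM13 are higher at both doses, as the heavy chains are, but lie close to the dotted line, and MARCHF4 is lower at both. The interferon-stimulated genes spread from -2.00 for IFIT1 to above 1 for HERC5 on the vertical axis.

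All 5 epithelial markers were above background on all 12 arrays. Their summed intensity, mostly that of the keratins KRT8 and KRT19, was 38787 to 46941 in untreated cells, 65418 to 78088 at 1 µM and 61632 to 75070 at 4 µM, higher in treated cells like the heavy chains. The mean of CDH1, the gene of E-cadherin, went the other way, from 1288 in untreated cells to 596 at 1 µM and 540 at 4 µM. All 4 T cell and all 3 natural killer cell markers were below it on every array. Of the myeloid markers CD14, CD68, AIF1 and LYZ, 4 of 4 were above background on all arrays, with a summed intensity of 4680 to 4930 in untreated cells, 2072 to 2600 at 1 µM and 2143 to 2488 at 4 µM. Most of that sum was CD68, with means of 4080, 1933 and 1745 in that order. CD14 had means of 307, 164 and 153, AIF1 of 249, 205 and 217, and LYZ of 156, 143 and 150. The 2 B cell markers lay near the threshold (MS4A1 above it on 7 arrays and CD79A on 8), with summed intensities of 216 to 299, 232 to 305 and 243 to 277. The summed fibroblast markers ran from 342 to 405 in untreated cells, 599 to 696 at 1 µM and 818 to 908 at 4 µM. In that order the means were 148, 366 and 558 for COL1A1 and 92, 145 and 189 for LUM. DCN did not follow, with means of 128, 123 and 132, near background. The part of these marker changes in the class I results was not tested. The single tested TCF3 probe fell by 0.79 ± 0.12 at 1 µM and 1.44 ± 0.12 at 4 µM (limma adjusted p = 2.11e-06 and 6.07e-12). Whether it reads the introduced E47 is not given in the sources used here.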

How the data were processed

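The authors deposited linear-scale intensities per probe. Sorted, the 12 columns differ from the first by at most 0.912, as quantile normalization would leave them, but that step is not given in the sources used here. The submitters' processing notes name GenomeStudio, with no version or settings. A second table was not used, since its 24 columns of values and detection p-values match no sample label. For that reason background was taken from the intensities: mode 99.38, SD 14.7 from its lower side, threshold 123.6 (the 95% point of that background), passed on at least 4 arrays by 24329 of 47323 probes. On each array 22348 to 22380 probes lay above it, and array medians were 119.9 to 120, which the normalization fixes. The number of arrays limits the precision.

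Intensities were corrected by normexp on the signals alone (offset 50), taken to log2 and fitted with limma 3.58.1 in R 4.3.3 over all 12 arrays without covariates, two-sided. Annotation gave 30113 probes 1 gene, 8 several and 17202 none, and symbols were updated through gene identifiers. A gene of a list is represented by its tested probe of highest mean. The members, lists, motifs and tests were chosen with earlier results of these data known. Of each list the 4 largest called changes in each direction were to be named, with PSMB8, PSMB9, NLRC5, IRF1 and TCF3 always; 1 further item of this rule is not reported here. Genes given as not called, RELA and the second probes were added after their values were seen. Promoter sequences are from RefSeq (GRCh38.p14), and HLA-E had no entry. Tested on simulated data for 4 µM against untreated cells, the procedure recovered 56.7% of 67 probes given a log2 change of 0.5 and 97% of 67 given a change of 1, and called 0.0414% of 24129 unchanged probes. Only 200 probes were changed in that simulation. In the real data 19.8% of tested probes were called higher and 20.3% lower at 4 µM, which loosens the cutoff, so these rates do not carry over to the real calls. No 2 arrays were identical. The 12 same-number pairs of arrays had residual correlations of -0.073 to 0.143, within the -0.197 to 0.153 of pairs with different numbers. With 4 arrays per group these values cannot settle whether same-numbered arrays share an effect.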

Additional observations from a re-analysis of the deposited data

How the results depend on the processing

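The alternatives were another background correction or offset, other detection filters, 1 probe per gene, fits of the compared groups alone, limma-trend, the replicate number as a block, and each array left out. No member probe or named gene with a call changed direction. With each array left out in turn, 9 members were called higher at 1 µM every time and 5 to 7 at 4 µM. The 1 member called lower at 4 µM became 0 with 1 probe per gene, by construction since that keeps the other TAP2 probe, and ranged from 0 to 1 without an array. Members called lower at 4 µM against 1 µM went from 5 to 3 with 1 probe per gene, where fewer probes are tested, and from 2 to 5 without an array; the low of 2 came without 1 µM array 4. Other pathway genes called lower between the doses numbered 1 (RELA), and 2 without background correction, with the strict filter and with the compared groups alone. IRF1 was called in each of these settings (limma adjusted p = 0.0469, 0.0412 and 0.0498). Without an array the number ranged from 1 to 2. IRF1 was called without untreated array 4 (adjusted p = 0.0381) and PSMB9 without 1 µM array 1 (adjusted p = 0.0309). The cause was not tested. With the replicate block, members called lower between doses were 4 and the brighter HLA-F probe was lost (-0.33), and otherwise member counts were as reported; same-numbered arrays did not deviate together, and 3 of 12 arrays correlated best with their own number. The brighter HLA-F call between doses was also lost with an offset of 16, without the detection filter and with the compared groups alone. PSMB8 at 4 µM was lost with an offset of 16 (adjusted p = 0.0582) and without the detection filter (adjusted p = 0.0757), in a range of all its settings up to 0.156. Without 1 µM array 4, calls between doses over all probes fell to 670 higher and 676 lower, from 1010 and 1059, and without 4 µM array 2, 3 or 4 those lower fell to 678 to 697. Probes close to background, such as the dimmer HLA-F probe, have folds that the correction and its offset shrink or stretch most.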

Other observations

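The class II genes, which present peptides taken up from outside and mark professional antigen-presenting cells, were mostly undetected. Of 11 annotated genes of the class II list, 3 were tested. HLA-DRA, a class II chain, stood at -0.16 ± 0.11 at 1 µM (limma adjusted p = 0.273) and fell by 0.33 ± 0.11 at 4 µM (adjusted p = 0.0177), a call lost without 4 µM array 1 (adjusted p = 0.0721). HLA-DMA, a class II peptide editor, was not called at either dose (-0.13 ± 0.11 and 0.06 ± 0.11). CD74, the invariant chain, rose at 1 µM by 0.36 ± 0.11 (adjusted p = 0.00745), with 1 of 4 untreated arrays above background, and stood at 0.20 ± 0.11 at 4 µM (adjusted p = 0.155). CIITA, the class II transactivator, was below the filter.

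Neighbours of the class I genes on chromosome 6 went up and down. Of the genes that start between HLA-F and TAPBP, other than members and HLA genes, 92 were tested. At 1 µM 19 rose and 26 fell, and at 4 µM 15 rose and 24 fell, with median log2 fold changes of -0.07 and -0.06. Among all named genes tested, 22.9% rose and 21.8% fell at 1 µM and 24.8% rose and 22.1% fell at 4 µM. LTB, a membrane-bound member of the tumour necrosis factor family, rose from a mean intensity of 241 to 2935 at 1 µM and 2219 at 4 µM (limma adjusted p = 6.4e-23 and 7.16e-22). C6orf15 was below background on all untreated arrays and at least 5.15-fold higher at 1 µM and 5.72-fold at 4 µM. DDR1, a collagen receptor kinase, rose by 1.17 and 1.44 on the log2 scale. At 4 µM the heat shock protein genes HSPA1A and HSPA1B, which are nearly identical and may not be separated by their probes, fell by 1.02 and 1.06, and TCF19 fell by 1.24, with 1 of 4 arrays above background.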
